A study of Mus musculus with 7 samples.

Results

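The comparison set the plantaris on its first day of reloading against the same muscle on days 7 and 14, called the settled days here. It rested on 3 of the 7 arrays of the series, namely d1 (the first day), d7 and d14, with d3 and d5 placed between them. For each gene the log2 intensity at d1 was set against the mean log2 intensity of d7 and d14, so that the array taken at the end of suspension did not enter the difference. Of 12102 genes kept after a filter on low values, 173 (1.43%) stood 1.5-fold or more above the settled mean at d1 and 53 (0.438%) as far below it.

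All arrays came from male C57BL/6J mice, 5 months of age, that had spent 2 weeks in hind limb suspension, which takes the weight off the hind limbs. At d1, d3, d5, d7 and d14 the hind limbs had borne weight again for that many days, and d0, named as the control in the labels, was the end of suspension. No animals that were never suspended were analysed here, so the d7 and d14 levels are those of recovering muscle. Each array held RNA of the left plantaris, a calf muscle made mostly of fast fibres, pooled from 6 animals.

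With 1 array per time point no difference has a replicate check, and no p-value is given. Precision is limited by how few arrays there are. The d7 and d14 arrays are different days and not replicates, but the gap between them gives a scale. They lay 1.5-fold or more apart at 23 genes, with d7 higher in 14 (0.116% of all kept genes) and lower in 9 (0.0744%), and the robust standard deviation of the log2 difference over the 12102 genes was 0.105 between those days, against 0.190 for d1 and d7 and 0.142 for d1 and d14. All 10 genes listed as defining muscle fibres were kept, with a summed intensity of 153221 at d1, 156845 at d7 and 159204 at d14. The deposited values repeat within genes. In 55.5% of all kept genes at least 2 of the 7 arrays held the same value to the last digit, against 24.3% of the higher and 15.1% of the lower genes.

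When a muscle is loaded again, strain reaches the Z-disc and the titin filament, where ankyrin repeat and LIM proteins sit, and these signal to the nucleus. Newly loaded fibres are open to damage of the sarcomere, and chaperones that refold or hold actin, filamin and myosin are part of the known response. Growth then needs new ribosomes, while macrophages clear damaged fibre segments.

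Proteins of the Z-disc and of titin gave several of the widest differences. Ankrd1, a titin-associated ankyrin repeat protein, had intensities of 3007 at d1, 1078 at d3, 676 at d5, 369 at d7 and 321 at d14, so d1 was 8.73-fold above the mean of the settled days (log2 difference 3.13). Xirp1, which marks sites of myofibril repair, stood at 6668 at d1, 2704 at d3, 1882 at d5, 1751 at d7 and 1310.0 at d14, a difference of 2.14. The muscle LIM protein gene Csrp3 had 6741 at d1, 4773 at d3, 3504 at d5, 2603 at d7 and 1679 at d14, and its settled days were themselves 0.63 apart, since d7 was still above d14. In these genes each of the later arrays named lay below the one before it.

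Ankrd2, a relative of Ankrd1 that is rich in slow fibres, stood at 10126 at d1, 7725 at d3, 5634 at d5, 5033 at d7 and 3823 at d14 (difference 1.21). The Z-disc crosslinker Flnc, filamin C, had 10409 at d1, 5541 at d3, 4393 at d5, 4641 at d7 and 4240.4 at d14 (difference 1.23). In Flnc the step lay between d1 and d5, and d5 was the lowest of these 5 arrays for it except for d14. Lmcd1, a LIM protein of striated muscle, was 2.32-fold higher and Klhl40, which stabilises nebulin, 2.58-fold. Of the 22 kept genes listed as stretch and load responsive, 6 were past 1.5-fold upward and none downward, beside the 1.43% and 0.438% of all kept genes. Among the 6 were Ankrd1 and Hspb7 (0.60), and not every gene named above was on that list. The list's median was 0.14, against 0.01 over all kept genes, and Pdlim7, a Z-disc LIM protein, lay on the other side at -0.35. This list and those below were chosen with earlier results of these data known. An excess over all kept genes can therefore be built into their membership.

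**Figure D1:**
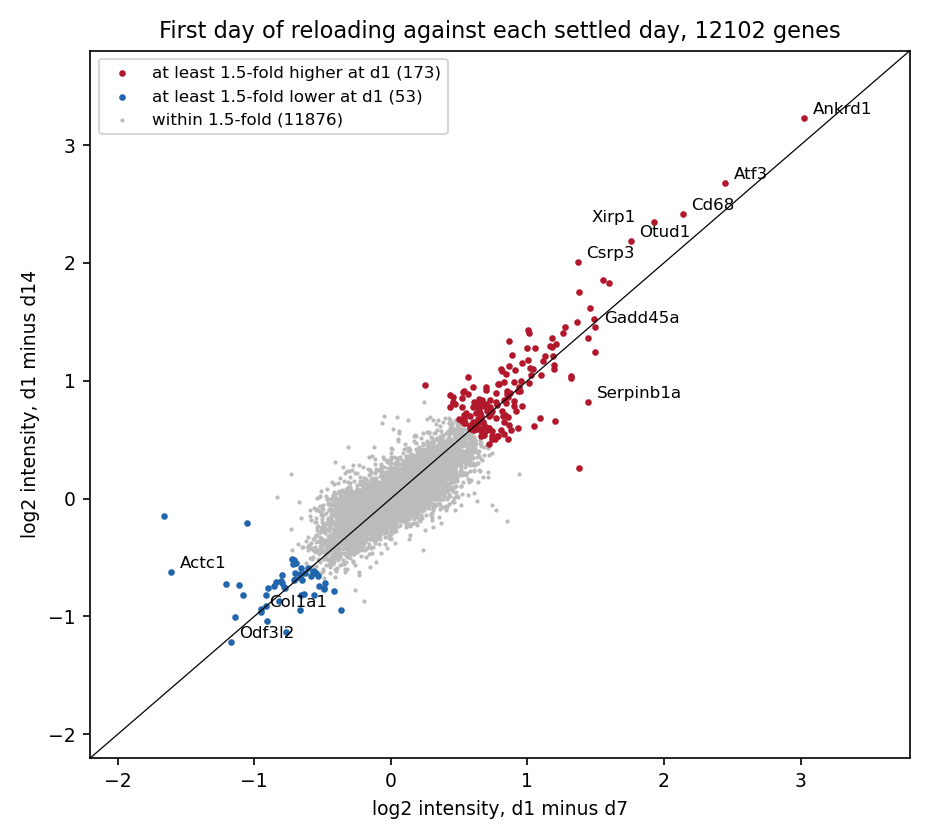
Log2 intensity at d1 minus d7 (x axis) against d1 minus d14 (y axis), 1 point per kept gene; red points are the 173 genes at least 1.5-fold higher at d1 against the mean of both days, blue points the 53 at least 1.5-fold lower, and the line marks equal differences. Ankrd1, Atf3, Cd68, Xirp1 and Otud1 lie at the upper right near the line, while Actc1 and Serpinb1a lie off it because d7 and d14 differed.

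The higher set was larger than the lower and reached farther. It held 41 genes at least 2-fold apart, against 3 in the lower set. The 173 higher and 53 lower genes each had 1 direction against d7 and against d14 taken singly, and 128 and 34 of them were past 1.5-fold against each. Of all 12102 kept genes 9039 had 1 direction against both days. The rule takes genes far from the mean of these days, which makes 1 direction likely, so nothing is read from it. Of all kept genes 1.74% were past 1.5-fold upward and 0.529% downward against d7, and 1.61% and 0.512% against d14. Higher genes made up 76.5% of the 226 genes past 1.5-fold, and this split depends on scaling: it was 65.9% after quantile normalization and 63.1% with array medians made equal. Just inside the threshold lay Lyz2 and Rasd2 (log2 differences 0.59 and 0.59) and, downward, Dgat2 and Grb14 (-0.59 and -0.59). Just outside it lay Mical2 and Fam111a (0.58 and 0.58) and, downward, Fam131a and Mettl21c (-0.58 and -0.58).

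Sequences before the gene starts are shown for called genes that hold a match to motifs of factors known in load and stress responses, with no stretch shown for CRE. Promoters of 138 of the 173 higher and 38 of the 53 lower genes matched by symbol in the RefSeq table (GRCm38.p6), and the 250 bases before the start were searched on both strands. The motifs were MCAT (CATTCC or GGAATG, bound by TEAD factors), CArG (bound by SRF), AP-1 (TGANTCA), the palindromic CRE (bound by ATF and CREB factors) and the heat shock element (bound by HSF1), searched as 3 units of GAA or TTC in turn with 2 free bases between units. A stretch could match more than 1 motif. The stretches of 100 bases run 5′ to 3′ on the gene's strand, with each match to the named motif in capitals.
Ankrd1: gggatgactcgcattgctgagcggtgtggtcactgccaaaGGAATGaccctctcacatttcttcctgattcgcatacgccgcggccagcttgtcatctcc
Lmcd1: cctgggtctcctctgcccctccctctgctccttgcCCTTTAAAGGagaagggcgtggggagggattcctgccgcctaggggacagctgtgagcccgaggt
Actc1: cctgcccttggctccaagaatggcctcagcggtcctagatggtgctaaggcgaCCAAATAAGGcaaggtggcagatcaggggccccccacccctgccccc
Cd68: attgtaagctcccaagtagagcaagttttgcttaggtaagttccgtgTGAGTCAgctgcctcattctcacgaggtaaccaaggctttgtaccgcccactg
Hspe1: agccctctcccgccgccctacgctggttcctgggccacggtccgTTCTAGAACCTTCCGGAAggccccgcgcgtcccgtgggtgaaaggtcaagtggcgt
The Ankrd1 stretch is chr19:36119995-36120094 on the minus strand, with an MCAT match 210 to 205 bases before the start. The Lmcd1 stretch, chr6:112273508-112273607 on the plus strand, and the Actc1 stretch, chr2:114052876-114052975 on the minus strand, hold CArG matches 215 to 206 and 47 to 38 bases before their starts, although Lmcd1 was higher and Actc1 lower at d1. The Cd68 stretch is chr11:69666267-69666366 on the minus strand and the Hspe1 stretch chr1:55088015-55088114 on the plus strand.

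A match is a description of letters and not a shown binding site. AP-1 letters stood before 13 of the 138 higher genes (9.42%) and 0 of the 38 lower genes, against 5.53% of kept genes and 7.82% of all promoters in the table. CArG letters stood before 5 higher genes (3.62%) and 3 lower genes (7.89%), against 1.5% of kept genes and 1.62% of all promoters. The lower genes with CArG letters were Actc1, Myl3 and Cbr2. MCAT letters were about as common in higher (13.8%) and lower genes (15.8%) as in kept genes (12.8%) and in all promoters (14.4%). CRE letters stood before 2 higher genes (1.45%) and no lower gene, against 2.86% of kept genes and 1.77% of all promoters. Heat shock element letters stood before Hspe1 alone among higher genes (0.725%) and no lower gene, against 0.487% of kept genes and 0.514% of all promoters.

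Cytoskeletal genes lay mostly above 0 at d1, and a few were past 1.5-fold. Enah, an Ena/VASP protein that extends actin filaments, had 2089 at d1, 1089 at d3, 807 at d5, 711 at d7 and 576 at d14 (difference 1.71). Tubb6, a beta tubulin isotype, had 1446 at d1, 753 at d3, 618 at d5, 478 at d7 and 406 at d14 (difference 1.71), each day below the one before. Among SRF, STARS and actin remodelling genes 5 of 27 were past 1.5-fold upward (all kept genes 1.43%) and none downward (0.438%). They were Enah, the myosin regulatory light chain Myl12a (0.92), the STARS gene Abra (0.88), the cofilin partner Wdr1 (0.70) and vinculin, Vcl (0.60). The list median was 0.15, and 24 of the 27 genes lay above 0 (all kept genes 51.9%). With array medians made equal 20 did (all kept genes 37.0%). Of 8 tubulin genes Tubb6 alone was past 1.5-fold; Tubb5 stood at 0.57, Tubb2b at 0.45 and Tubb2a at 0.44, while Tuba4a was at 0.05. Of the 8 tubulin genes 7 lay above 0, and 5 with array medians made equal. Tubulin isotypes are alike in sequence and their rows may share signal.

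The heat shock list had 8 genes past the threshold, as many as ribosome biogenesis and denervation responsive genes, and all but Hspe1 of the 8 act in the cytosol. The inducible Hsp70 gene Hspa1a had 1389 at d1, 666 at d3, 581 at d5, 533 at d7 and 412 at d14 (difference 1.57); its near-identical neighbour Hspa1b shares a second row, which is not named here. Hsp90aa1, the inducible Hsp90, had 1969 at d1, 1136 at d3, 873 at d5, 767 at d7 and 695 at d14 (difference 1.43). Of these 5 arrays d1 was the highest and d14 the lowest in both genes. Dnajb1 (1.15) and Dnaja1 (0.94), co-chaperones of Hsp70, Hsph1 (1.06), which exchanges its nucleotide, the small heat shock proteins Hspb1 (0.81) and Hspb8 (0.80), and Hspe1 (0.78), the mitochondrial co-chaperonin, were also past 1.5-fold. The 22 genes had a median of 0.47, with 20 above 0 (all kept genes 51.9%) and none past 1.5-fold downward (0.438%). The 8 past it upward stand beside 1.43% of all kept genes. Dnaja4, an Hsp40 that was not on that list, was 2.41-fold higher.

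TRiC, the ring that folds actin and tubulin, differed little among its subunits. All 8 subunits lay above 0, from 0.24 (Cct7) to 0.56 (Cct5), and none was past 1.5-fold. Over all kept genes 51.9% lay above 0, and 37.0% with array medians made equal. All 22 endoplasmic reticulum chaperones and folding genes lay above 0 too, with a median of 0.30. Both counts above 0 were the same after quantile normalization and with equal medians. Hsp90b1 (0.78), the chaperone Hspa5 or BiP (0.73), its co-chaperone Dnajb9 (0.63) and the disulfide isomerase Pdia4 (0.61) were past 1.5-fold (all kept genes 1.43%). After either rescaling 2 genes of the list were past it. The transcription factor Xbp1 stood at 0.56. Hspa5 had 2780.3 at d1, 1658 at d3, 1685 at d5, 1788 at d7 and 1576 at d14, and d3 lay between the 2 settled days.

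Single stress and growth arrest genes stood far above the settled days, while the medians of their lists were 0.14 or less. Atf3, a stress-induced bZIP factor, had 2704 at d1, 643 at d3, 545 at d5, 495 at d7 and 423 at d14 and was 5.91-fold higher, the largest difference after Ankrd1. Gadd45a, a growth arrest and DNA damage gene, had 568 at d1, 205 at d3, 207 at d5, 201 at d7 and 207 at d14: d1 stood apart and the 4 later arrays lay within a narrow band. Its relatives were on the other side, with Gadd45g at -0.50 and Gadd45b at -0.46, neither past 1.5-fold. Srxn1, sulfiredoxin, which repairs overoxidised peroxiredoxins, had 1045 at d1, 431 at d3, 399 at d5, 383 at d7 and 406 at d14 (difference 1.40). Eda2r, a receptor for ectodysplasin A2, was at 1.18. Gadd45a and Eda2r were the 2 of 17 p53 and growth arrest genes past 1.5-fold upward (all kept genes 1.43%), with none downward (0.438%). Of the 17 genes 10 lay above and 6 below 0 (all kept genes 51.9% and 46.0%), with a median of 0.14. Among ATF4 and integrated stress genes Atf3 was the only 1 of 19 past 1.5-fold upward, and Chac1, which degrades glutathione, was past it downward (-0.81). Asns was at 0.49 and Ddit3 at 0.37, and the list median was 0.06, against -0.01 with array medians made equal. Metallothioneins, which bind zinc and copper, were higher as well (Mt2 1.09, Mt1 0.66), and Mt2 at d3 (7283) was above d1 (6819).

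Signals at the cell surface included Hbegf, a ligand of the EGF receptor, with 1025 at d1, 455 at d3, 428 at d5, 428 at d7 and 386 at d14 (difference 1.34). Tnfrsf12a, the TWEAK receptor Fn14, had 1120.2 at d1, 504 at d3, 566 at d5, 398 at d7 and 473 at d14 (difference 1.37), with d5 above d3. Tnfrsf23, a decoy receptor for TRAIL, was 2.84-fold higher, the peptide apelin (Apln) 1.99-fold and the matricellular gene Ccn1 1.90-fold. Of 26 AP-1 and immediate early genes 3 were past 1.5-fold upward, beside 1.43% of all kept genes. They were the nuclear receptor Nr4a3 (1.05), Ccn1 (0.93) and Myc (0.78), whereas Nr4a1 stood at -0.44 and Jun at 0.30. Of 17 YAP and TEAD targets Ankrd1 and Ccn1 were past 1.5-fold, and none downward. The deubiquitinase genes Otud1 and Usp28 were 3.93-fold and 2.30-fold higher; Otud1 had 908 at d1, 424 at d3, 294 at d5, 268 at d7 and 199.6 at d14, every day below the one before.

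Genes known from denervated muscle were among the higher ones. Runx1, a transcription factor that is scarce in innervated muscle, had 913 at d1, 424 at d3, 309.5 at d5, 333 at d7 and 298 at d14 (difference 1.54); d5 lay below d7. Of the 19 kept genes 8 were past 1.5-fold upward and none downward, beside 1.43% and 0.438% of all kept genes, with a median of 0.51. With Runx1 and Gadd45a they were the AMP deaminase Ampd3 (1.14), the acetylcholine receptor subunits Chrna1 (1.06) and Chrnb1 (0.61), the adhesion molecule Ncam1 (0.74), the deacetylase Hdac4 (0.65) and myogenin, Myog (0.61). Outside the naming rule and chosen after their values were seen, the adult receptor subunit Chrne lay on the other side (-0.49) and the embryonic subunit Chrng at 0.53. Chrna1 had 878 at d1, 478 at d3, 466 at d5, 434 at d7 and 408 at d14, with d1 apart from the later arrays. With array medians made equal 5 of the 8 stayed past 1.5-fold.

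Machinery for making protein was higher in many small steps. Of 51 ribosome biogenesis genes 49 lay above 0 (all kept genes 51.9%), with a median of 0.30, and 8 were past 1.5-fold (all kept genes 1.43%). These were the box C/D core protein Nop58 (0.83), the nucleolar helicase Ddx21 (0.76), Brix1 (0.74), Utp18 (0.73), Rrp12 (0.69), Gnl2 (0.66), Tsr1 (0.64) and Gnl3 (0.63). Nop58 had 279.9 at d1, 175 at d3, 171 at d5, 148 at d7 and 167 at d14, and d3 and d5 lay a little above both settled days. The list's median was 0.02 at d3. After quantile normalization 49 lay above 0 and 5 were past 1.5-fold, and with equal medians 48 and 6.

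Lists nearby had smaller medians. That of nuclear import, export and RNA handling was 0.25, with 25 of 26 above 0 (all kept genes 51.9%) and the exportin Xpo1 past 1.5-fold (0.73). Aminoacyl-tRNA synthetases had a median of 0.21, with 19 of 20 above 0, none past 1.5-fold and Eprs highest at 0.49. Translation factors had a median of 0.21, in which the helicase Eif4a1 stood at 0.66, and the proteasome one of 0.19, in which the lid subunit Psmd11 stood at 0.87 and Psma1 at 0.60. The antizyme inhibitor Azin1, which spares the polyamine enzyme ornithine decarboxylase, was at 0.73 and that enzyme's gene Odc1 at 0.52. Amino acid transporters had none past 1.5-fold, with Slc38a2 at 0.46.

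Of the marker lists of other cell types that of macrophages had the highest median. Cd68, a lysosomal glycoprotein, had 1346 at d1, 1068 at d3, 714 at d5, 306 at d7 and 253 at d14 (difference 2.27), so d3 stayed far above the settled days. Of 20 kept markers of 26 on the array 19 lay above 0 (all kept genes 51.9%), with a median of 0.45, and 5 were past 1.5-fold (all kept genes 1.43%). The others were galectin-3 (Lgals3, 0.88), the mannose receptor Mrc1 (0.73), Tyrobp (0.65) and Lyz2 (0.59). Their summed intensity was 9128 at d1, 8833 at d3, 7706 at d5, 6116 at d7 and 5759 at d14. The d10 array stood at 7855, and against the mean of 4 arrays, d5 to d14, the list median was 0.25. In a whole muscle, fewer cells of a type and less RNA per cell cannot be told apart. Whether macrophages contributed to other higher genes was not tested.

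Neutrophil genes passed the threshold without a steady difference. Mpo (0.80), Ngp (0.71), S100a8 (0.64) and Elane (0.61) were past 1.5-fold upward, 4 of 13 beside 1.43% of all kept genes. Elane differed by 0.71 between d7 and d14. Mpo had 322 at d1, 165 at d3, 129 at d5, 217 at d7 and 157 at d14 and reached 506 at d10. The 13 kept markers had a median of 0.04 against d7 and 0.52 against d14, and of -0.17 against the mean of the arrays from d5 to d14. Endothelial, fibroblast, smooth muscle, adipocyte, Schwann cell, lymphocyte and red cell lists had medians between -0.09 and 0.06.

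**Figure D2:**
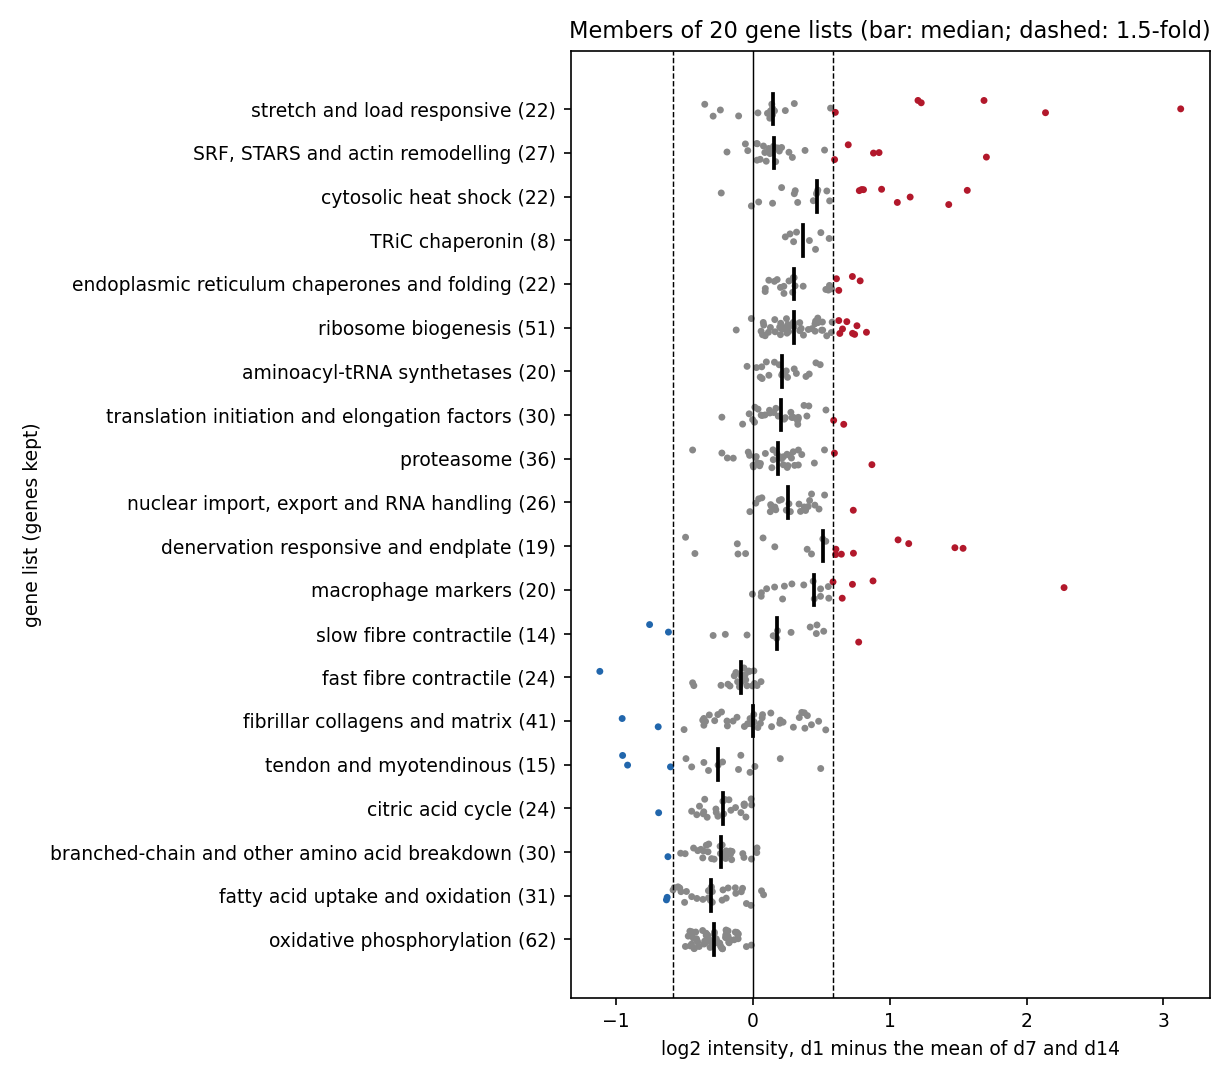
Log2 intensity at d1 minus the mean of d7 and d14 for the kept members of 20 gene lists, 1 point per gene; black bars are list medians, dashed lines mark 1.5-fold, and red and blue points are genes past it upward and downward. All 8 TRiC subunits and all 22 endoplasmic reticulum chaperones and folding genes lie right of 0, and all 62 oxidative phosphorylation genes and all 24 citric acid cycle genes lie left of it.

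Genes of the respiratory chain and of fuel oxidation lay lower at d1, which did not hold for every mitochondrial list. All 62 oxidative phosphorylation genes lay below 0, between -0.49 and -0.01 with a median of -0.28, and none was past 1.5-fold; over all kept genes 46.0% lay below 0, and 63.0% with array medians made equal. The cytochrome oxidase subunit Cox4i1 stood at -0.49, the complex I subunit Ndufb6 at -0.46 and the complex III subunit Uqcrc1 at -0.45. Cox4i1 had 2484 at d1, 2776 at d3, 3208 at d5, 3376 at d7 and 3615 at d14, each day above the one before. The list's median was -0.15 at d3 and -0.03 at d5, between d1 and the settled days at both.

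All 24 citric acid cycle genes were below 0 as well (all kept genes 46.0%), with a median of -0.22. Idh2, the mitochondrial isocitrate dehydrogenase, had 1651 at d1, 1894 at d3, 2105 at d5, 2436 at d7 and 2903 at d14, with each day above the one before. It was 1.61-fold lower (difference -0.69) and the only 1 of the 24 past 1.5-fold (all kept genes 0.438%). Among genes of fatty acid uptake and oxidation 29 of 31 lay below 0 (median -0.31). Acads, which handles short chains (-0.63), and the epoxide hydrolase Ephx2 (-0.63) were past 1.5-fold downward, 2 of 31 beside 0.438% of all kept genes. After quantile normalization 6 of the 31 were past it, and with array medians made equal 7. The carnitine enzyme Cpt2 stood at -0.57, Acaa2 at -0.58 and the fatty acid binding protein Fabp3 at -0.50. In breakdown of branched-chain and other amino acids 28 of 30 were below 0, led by Ivd of leucine breakdown (-0.62), the aminotransferase Bcat2 (-0.53) and Bckdha (-0.49). Ivd was the only 1 of the 30 past 1.5-fold, against 2 genes after either rescaling. Glycolysis and glycogen genes had a median of -0.06, and the 1 gene past the threshold there was higher, the glycogen branching enzyme Gbe1 (0.69). PGC-1 and mitochondrial regulators had a median of 0.04, 14 of 25 above 0 and none past 1.5-fold. Mitochondrial import, chaperones and proteases had a median of 0.07 and 14 of 24 above 0, with Hspe1 past 1.5-fold upward and none downward.

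Contractile genes split by isoform. Of 14 slow fibre genes 9 lay above and 5 below 0 (all kept genes 51.9% and 46.0%), with a median of 0.18. Past 1.5-fold were 1 upward and 2 downward (all kept genes 1.43% and 0.438%). Of 24 genes on the fast fibre list, which held Actc1, 20 lay below 0 and 1 was past 1.5-fold downward. With array medians made equal all 24 lay below 0 (all kept genes 63.0%). Actc1, cardiac actin, which developing skeletal muscle also makes, had 1228 at d1, 1585 at d3, 2404 at d5, 3742 at d7 and 1896 at d14, with d5 and d7 above d14 and a gap of 0.98 between d7 and d14. It was 2.17-fold lower at d1 against their mean. The ventricular and slow light chains Myl3 (-0.75) and Myl2 (-0.62) were lower at d1, while the slow troponin Tnni1 was higher (0.77) and the slow myosin heavy chain Myh7 stood at 0.46. Myl2 had 748 at d1, 1289 at d3, 1424 at d5, 1224 at d7 and 1074 at d14, so d3 and d5 were above both settled days. Tnni1 had 812 at d1, 1136 at d3, 733 at d5, 536 at d7 and 422 at d14, and d3 was its highest day. The fast IIa myosin Myh2 was at -0.43, and Myh1 at -0.09. Itgb1bp2, melusin, a muscle partner of integrin beta 1, was 1.69-fold lower.

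Collagen I and tendon genes were low at d1. Col1a1 had 721 at d1, 1111 at d3, 1335 at d5, 1392 at d7 and 1401 at d14 (difference -0.95) and Col1a2 stood at -0.69, while the matrix list of 41 genes had a median of 0.00, with Timp1 at 0.53 and Postn at 0.43. The d7 and d14 values of Col1a1 differed by less than 1%. Tnmd, tenomodulin of tendon cells, had 560.3 at d1, 748 at d3, 983 at d5, 956 at d7 and 1227 at d14, and the tendon proteoglycans Kera (-0.91) and Chad (-0.60) were also past 1.5-fold downward. Of 15 tendon genes 12 lay below 0 (all kept genes 46.0%) and 3 were past 1.5-fold downward (0.438%), with a median of -0.25. The exceptions above 0 included Cilp at 0.50. How much tendon each pool carried was not tested.

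Many lower genes, 37 of 53, were in none of the lists. Odf3l2, named for the outer dense fibres of sperm tails, had the largest difference, with 549.9 at d1, 818 at d3, 928 at d5, 1239 at d7 and 1280.2 at d14 (2.29-fold lower). Sbk2, a kinase gene, had 1382 at d1, 2124 at d3, 2194 at d5, 3054 at d7 and 2767 at d14 and Klhl33, a kelch protein, stood at -0.97. Aqp4, the water channel of fast fibres, had 334 at d1, 584 at d3, 645 at d5, 623 at d7 and 566 at d14: d1 alone was low. The potassium channel subunits Kcng4 (-0.92) and Lrrc38 (-0.84), carbonic anhydrase Car4 (-0.72), the creatine synthesis enzyme Gamt (-0.80), the glucose-6-phosphate carrier Slc37a4 (-0.77) and the phosphodiesterase Pde4a (-0.70) were lower too. Gamt had 592 at d1, 860.3 at d3, 1171 at d5, 1071 at d7 and 988 at d14, above the settled days at d5.

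**Figure D3:**
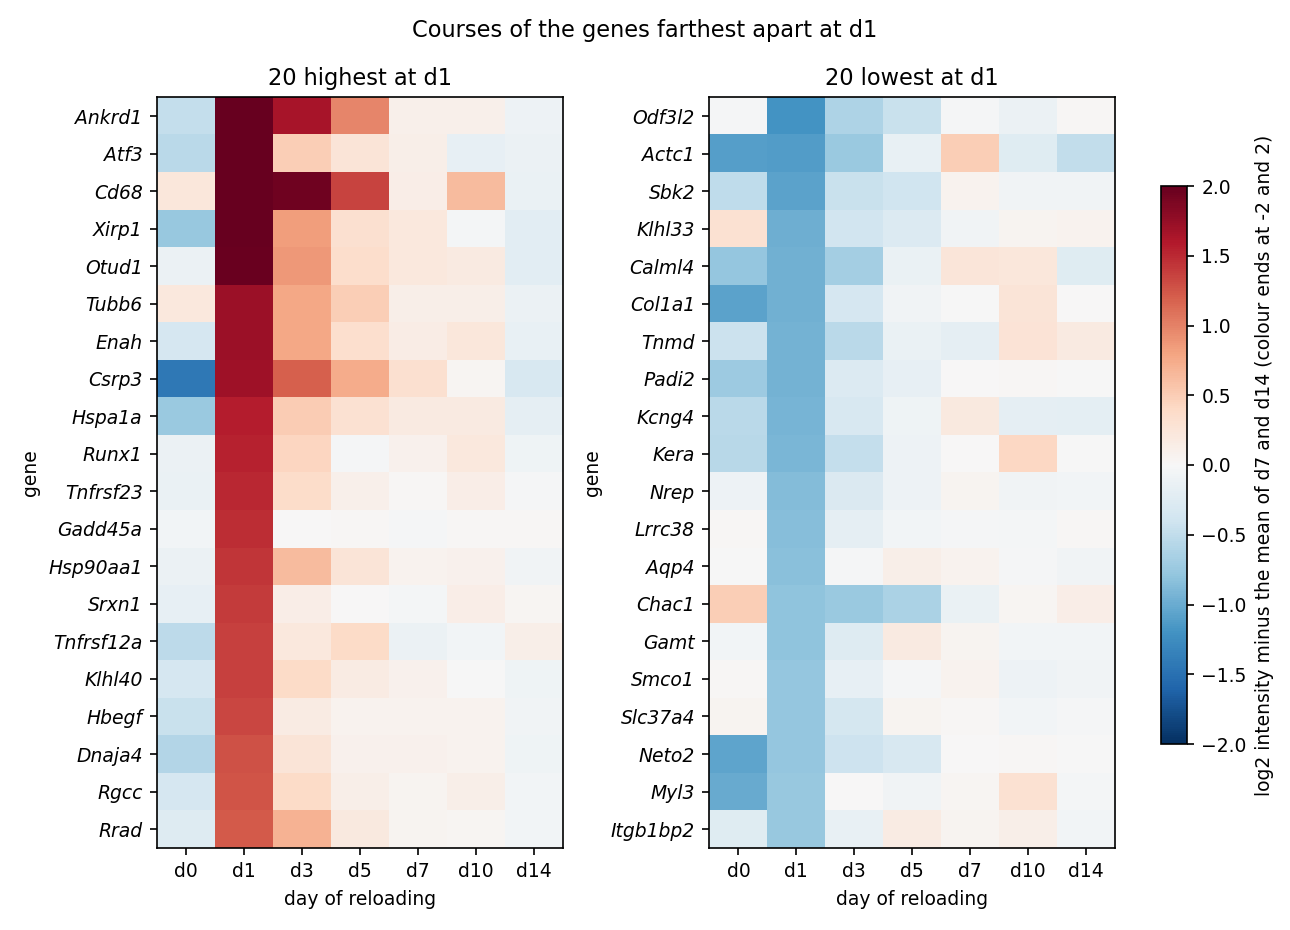
Log2 intensity minus the mean of d7 and d14 at each day (columns) for the 20 named genes highest and the 20 lowest at d1 (rows); red is above and blue below the settled mean, and colours end at -2 and 2. Red fades from d1 through d3 to d5 in most of the left panel and is deepest at d5 in Cd68, Ankrd1 and Csrp3. Gadd45a and Srxn1 are near white from d3 on. Actc1, Col1a1, Neto2 and Myl3 are at least as blue at d0 as at d1, or nearly so.

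Between d1 and the settled days lay d3 in 145 of the 173 higher genes (83.8%) and in 48 of the 53 lower genes (90.6%), against 53.3% of all kept genes. At d5 the counts were 131 (75.7%) and 42 (79.2%), against 47.0%. The rule takes genes with a wide gap, which leaves more room between its ends, so nothing is read from the excess over all genes. The full order d1, d3, d5, settled held in 102 higher (59.0%) and 34 lower genes (64.2%), against 23.2% of all kept genes. The same limit holds for this order. Where d3 was outside, it lay past the settled mean in 18 higher genes and beyond d1 in 10; of the lower genes 4 and 1 did so. At d5 41 higher and 11 lower genes were past the settled mean.

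As measured, most of the difference was gone by d3 in the median gene. The genes were chosen by an extreme d1 value, and the share is taken of that same difference. A d1 value set too far out by error would therefore make the share left smaller. With 1 array per time point the size of that part was not tested. The median higher gene kept 27.0% of its log2 difference at d3 (quartiles 11.4% and 50.6%) and 12.2% at d5. The median lower gene kept 42.6% at d3 (quartiles 22.2% and 54.1%) and 14.7% at d5. Whether the lower genes came back more slowly was not tested. Still 1.5-fold above the settled mean were 28 of the higher genes at d3 and 6 at d5. Of all kept genes, called at d1 or not, 57 (0.471%) were that far above at d3 and 21 (0.174%) at d5. The higher genes still so at d5 were Ankrd1, Cd68, Csrp3, Tnni1, Mybph and Wfdc17. Of the lower genes 7 were still as far below at d3, when 10 of all kept genes (0.0826%) were, and 2 at d5, when 4 of all kept genes (0.0331%) were. Those at d5 were Chac1 and the antibody segment Igkv9-120, which lies outside the naming rule and was named after its values were seen.

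**Figure D4:**
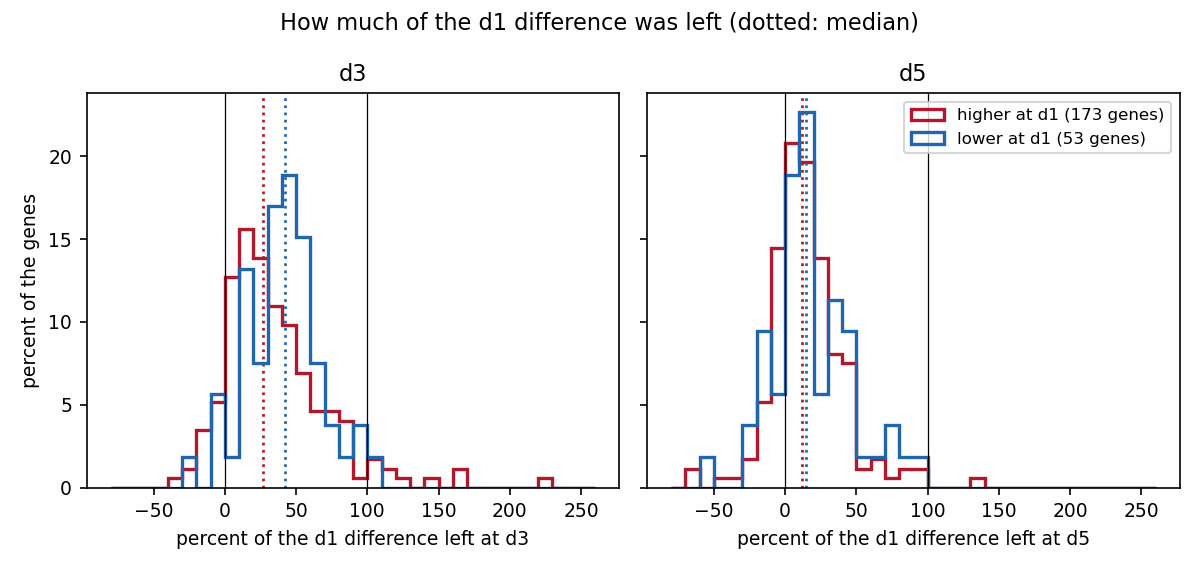
Percent of the d1 log2 difference left at d3 (left panel) and at d5 (right panel) on the x axis and percent of genes on the y axis, for the 173 higher (red) and 53 lower (blue) genes; 100 is the d1 value, 0 the mean of d7 and d14, and dotted lines are medians. The medians at d3 are 27.0% and 42.6%, and at d5 12.2% and 14.7%.

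At d5 the genes with the largest share of their difference left were muscle and myeloid genes. Mybph, a myosin-binding protein, had 96.5% left at d5 and Mustn1, a small nuclear protein of muscle and bone, 81.0%. Ly86 and Lyz2, of myeloid cells, had 90.4% and 79.5%. Wfdc17, also made by myeloid cells, was higher at d3 (1.24) and d5 (1.02) than at d1 (0.75), and Ngp (1.62) and the acute phase gene Serpina3n (1.22) were higher at d3 than at d1 (0.71 and 0.83). In the lower set Chac1 had 77.7% left at d5 and the LIM gene Crip3 79.6%. On the other side Gadd45a had 0.226% left at d3 and Aqp4 2.79%.

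The d3 and d10 arrays did not enter the difference that chose these genes, though they entered the filter on low values. In the higher set d3 was above d10 in 116 of 173 genes (67.1%), with a median difference of 0.10, against 34.9% and -0.02 over all kept genes. In the lower set d3 was below d10 in 51 of 53 genes (96.2%), the exceptions being Aqp4 and Rhox9, with a median of -0.32, against 57.6%. Without the filter the shares were 65.4% of 185 higher and 87.5% of 64 lower genes. With d7 alone as the settled day the shares were 51.9% of 210 higher and 76.6% of 64 lower genes. At d5 38.7% of the higher genes lay above d10 (all kept genes 29.4%), and 81.1% of the lower genes lay below it (all kept genes 63.7%).

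**Figure D5:**
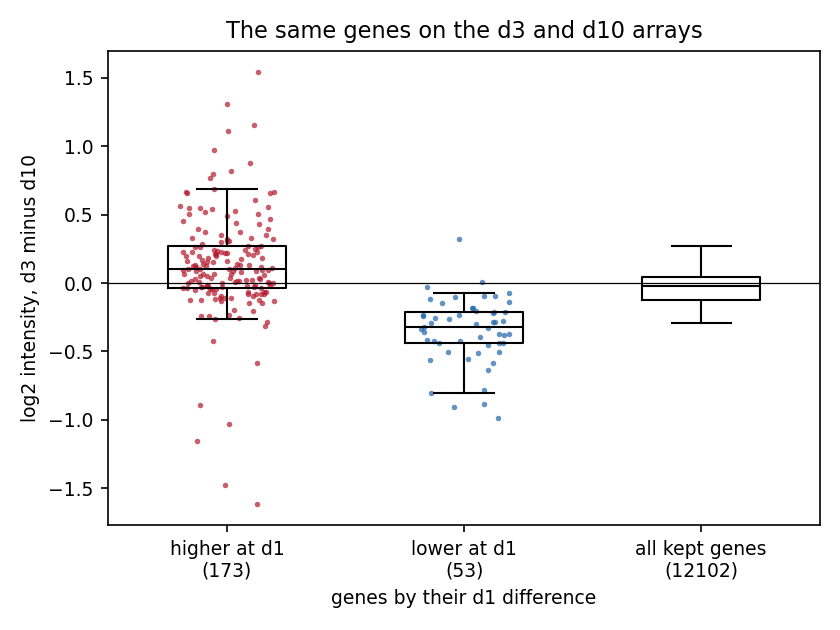
Log2 intensity at d3 minus d10 (y axis) for the higher genes, the lower genes and all kept genes (x axis), with 1 point per gene in the first 2 groups; boxes are quartiles with the median, and whiskers reach percentiles 5 and 95. The medians are 0.10 for higher, -0.32 for lower and -0.02 for all kept genes, and all but 2 lower genes lie below 0.

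At the end of suspension the higher genes mostly lay nearer to their settled level than to d1. The lower genes were divided about as all kept genes were. The d0 array was nearer to d1 than to the settled mean in 9 of 173 higher genes (5.2%) and in 21 of 53 lower genes (39.6%), against 42.5% of all kept genes. Among the 21 were Actc1, Col1a1, Col1a2, Myl2, Myl3, Neto2, Kera and Acads, which were thus low at the end of suspension and on the first day alike; Col1a1 had 721 at d1 and 662 at d0. The other 32, among them Odf3l2, Aqp4, Lrrc38, Gamt, Slc37a4, Nrep and Cbr2, lay nearer to the settled level at d0; Aqp4 had 334 at d1 and 591 at d0. By medians the 21 stood at -0.74 at d1 and -0.58 at d0, and the 32 at -0.67 and -0.09. The split was made on d0 itself, so the gap between their d0 medians is fixed by it. Among all 7 arrays d1 was the highest in 159 of the higher genes and the lowest in 47 of the lower. Over all kept genes d1 was the highest in 28.3% and the lowest in 10.6%. The rule takes genes with d1 far from d7 and d14, so nothing is read from the excess. The d0 array lay below the settled mean in 102 of the higher genes and above it in 70 (median -0.08). It stood at -1.55 for Ankrd2, -1.42 for Csrp3 and -0.89 for Flnc, but at 0.23 for Cd68 and 0.21 for Tubb6. Over all 12102 genes the d0 array lay below the settled mean in 8614 (median -0.08). A property of that array and of suspended muscle cannot be told apart.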

How the data were processed

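Each time point was 1 Affymetrix Mouse Gene 1.0 ST array with RNA pooled from 6 mice, per the series' design text. The deposited unit is intensity, judged linear from the values, with array medians between 128.1 and 131.8. The submitters' processing notes name Partek and no step. How the authors corrected, normalized and summarized it is not given in the sources used here. Values were put on the log2 scale as they stood, adding 0.

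Of 35556 rows 21789 had 1 gene symbol in the platform annotation, 1621 several and 12146 were not in it. Entrez IDs matched 21698 to RefSeq genes of GRCm38.p6. The row of highest mean stood for each of 19938 genes, and 12102 reached the array median on at least 1 array. Of the higher genes 6 passed that filter through d1 alone. Genes were called at 1.5-fold. Lists were described by counts and medians, with no set test. Beside the genes near the threshold and up to 6 each that overshot, kept most of the gap at d5 or differed most between d7 and d14, the naming rule took the 30 highest and 30 lowest genes without predicted genes and small RNAs, and per list the 8 largest differences and all past 1.5-fold. Members and lists were chosen with earlier results of these data known. The computation was tested on simulated data. Tools were matplotlib 3.10.9, scipy 1.17.1, pandas 2.3.3 and numpy 2.4.6 under Python 3.11.15. Alternatives were 3 filters, 2 normalizations, another pseudocount, the mean of rows, 3 references and 2-fold.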

Additional observations from a re-analysis of the deposited data

How the results depend on the processing

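Each time point is 1 array, so all values lack a replicate check, and dim genes and the part of any other cell type could not be judged from scanner signals, which were not used here. No paired analysis was possible because the labels give 1 sample per time point and no replicate numbers. Over the filters, normalizations, pseudocount, row rule and references tried the number of higher genes lay between 128 and 210 and that of lower genes between 42 and 75; 128 and 53 of the reported genes were kept with array medians made equal, and 148 and 41 with d7 alone. At 2-fold 41 genes were higher and 3 lower, of which d3 lay between in 90.2% and 100% and d5 in 100% of the lower, and d3 was above d10 in 85.4% of the higher and below it in 100% of the lower. The share of higher genes with d3 above d10 was 77.8% after quantile normalization, 84.4% with equal medians and 51.9% with d7 alone. With equal medians d5 lay between in 82.0% of the higher genes and d3 below d10 in 84.0% of the lower, and with d7 alone in 76.6% of the lower. The cause of these shifts was not tested. No named gene past 1.5-fold changed its sign under any of these settings. Settings added after the data were seen gave 128 higher and 34 lower genes past 1.5-fold against each day, 131 and 45 among genes with 7 distinct values, and 166 and 51 without predicted genes and small RNAs.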

Other observations

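Of the 173 higher genes 99 were in none of the lists, and of the 53 lower genes 37. The genes of this paragraph lie outside the naming rule and were chosen after their values were seen. Rcan1, an inhibitor of the phosphatase calcineurin, had intensities of 2847 at d1, 1777 at d3, 1550.1 at d5, 1515 at d7 and 1340.4 at d14. The kinase Mknk2, which acts on the cap-binding factor eIF4E, had 3140.3 at d1, 1743 at d3, 1539.9 at d5, 1730.3 at d7 and 1730.3 at d14, and the uridine kinase Uck2 had 2171 at d1, 1539 at d3, 1227 at d5, 1079 at d7 and 1098 at d14. At d3 Mknk2 was within 1% of its settled days and Uck2 still well above them. The potassium channel gene Kcnn3, which fast fibres re-express after denervation, was 1.85-fold higher, the microtubule end protein Mapre2 1.65-fold and the innate immune receptor Tlr4 1.93-fold. Lyve1, found on lymphatic endothelium and on resident macrophages, had 642 at d1, 523 at d3, 379 at d5, 366 at d7 and 303 at d14.

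Small nucleolar RNAs guide the modification of ribosomal RNA or act in its processing. Of 34 kept genes of that class by symbol, 27 lay above 0 at d1 (all kept genes 51.9%) and 4 were past 1.5-fold upward (1.43%). The 4 included Snora73b, with 549 at d1, 363 at d3, 313 at d5, 287 at d7 and 363 at d14. The median of the 34 genes was 0.25 against d7 and 0.02 against d14, and at d0 it stood 0.18 above the settled mean. Rnu3a, the U3 small nucleolar RNA, is not among these and was also past 1.5-fold upward, with a d7 minus d14 difference of -1.12. The group was formed by symbol after the higher genes were seen.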
